A study of Mus musculus with 18 samples.

Results

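The 2′-5′-oligoadenylate synthetase (OAS) family was followed in elicited peritoneal macrophages of mice with wild-type TLR4 (TLR4-WT) or with the TLR4 mutation K730R or K810R (TLR4-K730R and TLR4-K810R). It was taken as 7 genes by symbol, Oas1a, Oas1b, Oas1g, Oas2, Oas3, Oasl1 and Oasl2, out of 13598 genes with a value in the deposited files. Groups were mock-treated or given 100 ng/ml LPS for 6 h, with 3 RNA-seq libraries in each of 6 groups. All mice were on a C57BL/6 background, and in both mutant strains, made by CRISPR/Cas9 knock-in, 1 lysine of the intracellular TIR domain of TLR4 is replaced by arginine in every cell. The cells were elicited into the peritoneal cavity with thioglycolate, so all 6 groups share that stimulus. The labels give the tissue as Abdominal and the cell type as macrophage, and do not say whether the libraries of a group came from separate mice, so the p-values measure only the spread between these libraries.

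OAS enzymes are induced by type I interferon. When they bind double-stranded RNA they join ATP into 2-5A, a short chain with 2′-5′ links that acts as a messenger of the antiviral response. The OAS-like proteins Oasl1 and Oasl2 carry ubiquitin-like domains; mouse Oasl2 makes 2-5A, while Oasl1 does not and is known as a translational repressor of Irf7. Oas1b is encoded in mice at the flavivirus resistance locus, where C57BL/6 carries a premature stop codon, and GENCODE lists it as a polymorphic pseudogene. In macrophages, LPS induces interferon through the TRIF arm of TLR4 signalling, and the interferon that is released induces OAS genes.

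The members were chosen for their basal level and their rise after LPS across these 6 groups, so their levels and differences, and the counts of members that pass a threshold, are a description, and no p-value of a single member's level is printed. Levels are in FPKM, fragments scaled for transcript length and library size. For each gene and library the first-exon events and the last-exon events were summed, and the larger sum was used. A gene with no counted row in a library was set to 0. A difference is on the scale of log2(FPKM + 1), which understates the change of low genes, and "called" means an adjusted p below 0.01 from limma over 9707 genes.

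The genes lie in clusters on chromosome 5 of GRCm38. Oasl2 (114896936 to 114912234) and Oasl1 (114923240 to 114937915) stand side by side on the plus strand. Oas2 (120730333 to 120749853), Oas3 (120753098 to 120777661), Oas1g (120876142 to 120887613) and Oas1a (120896256 to 120907521) are on the minus strand of the second cluster, and Oas1b (120812635 to 120824163) is on its plus strand.

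An interferon-stimulated response element, the site that interferon-activated factors bind, has at its core a pair of GAAA units. RefSeq promoter windows of GRCm38.p6, which run from 250 bases before to 50 after the start, were matched for 5 members and searched for GAAANNGAAA on both strands. The letters stood in the windows of Oas1a, Oas1g and Oas3, not in those of Oasl1 and Oasl2, and in 3.44% of all 32851 windows. Oas1b and Oas2 have no window of their own. The stretch before Oas1b was read from the window of its neighbour Oas1c, which starts on the opposite strand 121 bases away. The sequences are shown because 3 of the 4 hold the same triplet of GAAA units just before the start, and capitals mark the bases covered by a match.
Oas1a (chr5:120907526-120907625, minus strand, the 100 bases before the start): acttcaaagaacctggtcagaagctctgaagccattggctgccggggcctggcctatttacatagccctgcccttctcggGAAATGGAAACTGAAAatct
Oas1g (chr5:120887614-120887713, minus strand, the 100 bases before the start): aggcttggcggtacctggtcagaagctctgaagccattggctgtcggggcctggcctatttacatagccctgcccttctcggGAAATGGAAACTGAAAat
Oas1b (chr5:120812515-120812634, plus strand, the 120 bases between the starts of Oas1c and Oas1b): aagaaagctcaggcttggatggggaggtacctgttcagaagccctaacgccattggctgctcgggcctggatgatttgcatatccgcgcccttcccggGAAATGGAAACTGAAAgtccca
Oas3 (chr5:120777660-120777759, minus strand, the 100 bases before the start): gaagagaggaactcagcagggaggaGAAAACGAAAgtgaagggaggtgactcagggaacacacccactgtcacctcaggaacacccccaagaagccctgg
The triplet began 20 bases before the start of Oas1a, 18 before that of Oas1g and 22 before that of Oas1b, and 0.116% of all windows held 3 such units at this spacing. Oas1a and Oas1g shared an unbroken run of 56 bases upstream of their starts. In Oas3 the match began 75 bases before the start. Of the 47 pathway genes outside the family listed for comparison, 14 of the 38 with a window held GAAANNGAAA. A match is a description of letters and does not show binding.

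The events of Oas1g carried the Ensembl number of Oas1a in the files. The 8 rows with the number of Oas1g lay on the opposite strand and reached at most 4.30 FPKM, so Oas1g had no value by its number, and 6 of 7 members entered the fit by number. Oas1g was valued by its coordinates instead, mainly from its first exon (120887380 to 120887613), in a separate fit of the same kind. Of the 50-base windows in the transcripts of Oas1a, 57.6% also occur in another gene, all of them in Oas1g, and for Oas1g the share is 45.7%. It is 2.78% for Oas1b and at most 0.31% for the other members. The split of reads between Oas1a and Oas1g is therefore uncertain, and how the submitters assigned shared reads is not given in the sources used here.

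The macrophage markers Adgre1, Csf1r, Cd68, Lyz2, Fcgr1 and Mertk were listed in every group, with summed levels of all 8 macrophage markers between 7289 and 14790 FPKM per library. Itgam had no counted row in any of the 18 libraries and Cd14 none in 17, so these markers could not be checked. T cell markers summed to at most 0.958 FPKM, B cell markers to at most 24.0 FPKM and neutrophil markers to at most 253 FPKM. In bulk libraries, fewer cells of a type and less RNA per cell cannot be told apart.

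In mock-treated TLR4-WT macrophages the OAS genes were already expressed, and every member was lower in mock-treated macrophages of both mutants. Against TLR4-WT, the mean levels in TLR4-K730R lay between 22.3% (Oasl2) and 49.3% (Oas1a), and those in TLR4-K810R between 12.6% (Oas2) and 42.3% (Oas1a). After LPS all members were higher in all 3 genotypes, and most mutant levels came within reach of TLR4-WT.

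Oas1a, a 2-5A synthetase and the most abundant member of the mock-treated libraries, measured 61.6, 61.1 and 63.5 FPKM in the 3 mock-treated TLR4-WT libraries. In mock-treated TLR4-K730R it was 32.2, 29.1 and 30.4 FPKM, and in mock-treated TLR4-K810R 27.9, 27.3 and 23.7 FPKM. The 3 genotypes did not overlap without LPS, and TLR4-K810R was the lowest. After LPS, Oas1a was 332, 374 and 276 FPKM in cells with wild-type TLR4, 251, 208 and 199 FPKM in TLR4-K730R cells and 257, 283 and 241 FPKM in TLR4-K810R cells. The LPS-treated TLR4-K730R libraries all lay below the TLR4-WT ones, while TLR4-K810R overlapped TLR4-WT.

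Oas1g, its near copy, followed at a lower level. It was 21.1, 22.0 and 20.6 FPKM in mock-treated TLR4-WT cells, 9.18, 7.43 and 6.82 FPKM in TLR4-K730R cells and 6.42, 4.65 and 6.29 FPKM in TLR4-K810R cells. After LPS it was 141, 101 and 124 FPKM in cells with wild-type TLR4, 110, 113 and 131 FPKM in TLR4-K730R cells and 124, 105 and 108 FPKM in TLR4-K810R cells. The LPS-treated genotypes overlapped one another, and the mock-treated ones did not.

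Oas1b was the lowest member. It was 1.55, 1.07 and 1.14 FPKM in mock-treated TLR4-WT, 1.04, 0.398 and 0.294 FPKM in TLR4-K730R, and 0.478, 0.984 and 0 FPKM for TLR4-K810R. Its LPS-treated libraries held 5.50 to 10.8 FPKM for wild-type TLR4, 6.55 to 9.62 FPKM for TLR4-K730R and 6.05 to 7.04 FPKM for TLR4-K810R, and these overlapped. The values of Oas1b rest on last exons, since the first exon listed for it (120812061 to 120812476) lay upstream of the annotated gene in 1 library and was not counted, and the 0 is a library with no counted row.

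Oas2, a 2-5A synthetase that works as a dimer, was 6.80, 7.49 and 7.61 FPKM in mock-treated TLR4-WT and 2.60, 2.83 and 2.17 FPKM in TLR4-K730R. In mock-treated TLR4-K810R it was 0.112, 1.56 and 1.09 FPKM, and the lowest of these libraries listed only the minor last exon (120733282 to 120733567). After LPS it was 33.8, 31.1 and 24.5 FPKM in cells with wild-type TLR4, 24.4, 22.7 and 33.9 FPKM in TLR4-K730R cells and 14.9, 17.996 and 15.8 FPKM in TLR4-K810R cells. All LPS-treated TLR4-K810R libraries lay below all TLR4-WT ones, at 54.4% of the TLR4-WT mean.

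Oas3, the largest synthetase, made of 3 OAS units, had one of the widest mock-treated gaps. It was 41.2, 33.3 and 48.7 FPKM in cells with wild-type TLR4, 10.4, 10.04 and 7.69 FPKM in TLR4-K730R cells and 7.19, 5.39 and 5.78 FPKM in TLR4-K810R cells. The gap was no longer present after LPS, where TLR4-WT held 117, 125 and 95.2 FPKM, TLR4-K730R 118, 100 and 143 FPKM, and TLR4-K810R 118, 94.8 and 89.0 FPKM. Its LPS-treated mean was 107% of wild type for TLR4-K730R and 89.2% for TLR4-K810R.

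Oasl1 was the most abundant member of the LPS-treated TLR4-WT and TLR4-K730R libraries by group mean. It was 27.4, 26.5 and 25.5 FPKM in mock-treated TLR4-WT cells, 11.1, 11.7 and 9.55 FPKM in TLR4-K730R cells and 4.76, 4.19 and 6.06 FPKM in TLR4-K810R cells. After LPS it was 472, 559 and 314 FPKM in cells with wild-type TLR4, 297, 316 and 559 FPKM in TLR4-K730R cells and 282, 217 and 237 FPKM in TLR4-K810R cells. As with Oas2, the LPS-treated TLR4-K810R libraries all lay below those of TLR4-WT, at 54.8% of its mean, and those of TLR4-K730R overlapped it.

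Oasl2 had the largest standard error of the members in the fit, 0.40 on the log2(FPKM + 1) scale. It was 60.5, 36.7 and 31.3 FPKM in mock-treated TLR4-WT cells, 10.6, 8.64 and 9.37 FPKM in TLR4-K730R cells and 6.03, 8.93 and 11.2 FPKM in TLR4-K810R cells. After LPS it was 93.0, 72.8 and 101 FPKM in cells with wild-type TLR4, 82.1, 20.9 and 75.6 FPKM in TLR4-K730R cells and 128, 85.7 and 132 FPKM in TLR4-K810R cells. After LPS each mutant overlapped TLR4-WT, while all TLR4-K810R libraries lay above all TLR4-K730R ones. The last annotated exon of Oasl2 was not listed, so its values rest on first exons, and 1 LPS-treated TLR4-WT library listed a further first exon of 45.2 FPKM upstream of the annotated gene (114890347 to 114892425), which was not counted.

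**Figure D1:**
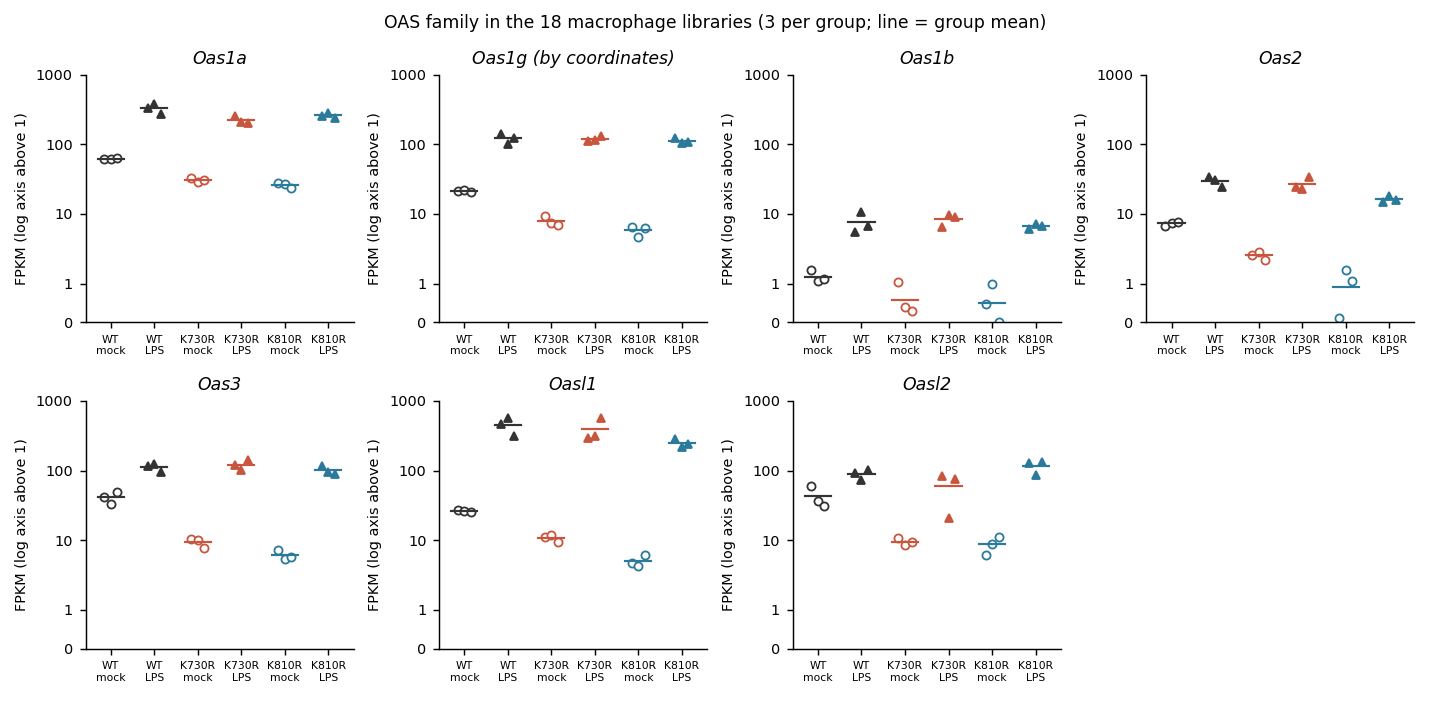
FPKM of the 7 OAS genes in each library, on an axis that is logarithmic above 1, with open circles for mock, filled triangles for LPS and a line for the mean of the 3 libraries. The mock-treated mutant libraries of every OAS gene lie below the mock-treated TLR4-WT libraries.

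By group mean, the order was the same for all 7 genes without LPS, with TLR4-WT highest, TLR4-K730R in the middle and TLR4-K810R lowest. The mutant groups did not overlap each other for 4 of the 6 members fitted by number (Oas1a, Oas2, Oas3 and Oasl1), where 6.04% of all tested genes were as clearly lower in TLR4-K810R, nor for Oas1g. They overlapped for Oas1b and Oasl2. After LPS no common order held, since TLR4-WT was highest for 4 genes, TLR4-K730R for Oas1b and Oas3, and TLR4-K810R for Oasl2.

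The mock-treated difference between TLR4-K730R and TLR4-WT had a median of -1.23 over the 6 members fitted by number, against 0.026 over all 9707 genes. It was -2.01 (standard error 0.18) for Oas3, -2.004 (0.40) for Oasl2, -1.24 (0.24) for Oas2, -1.22 (0.23) for Oasl1, -0.999 (0.12) for Oas1a and -0.54 (0.26) for Oas1b. Oas1a and Oas3 were called, 2 of 6 members, where 0.216% of tested genes were called lower, with 5 of 6 called under limma's library weights and 1 of 6 from last-exon sums alone. Oas1g, in its own fit, differed by -1.34 (0.14) and was called. All 6 members lay wholly below TLR4-WT, as did 7.45% of tested genes.

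In mock-treated TLR4-K810R the median was -2.17 over the members and 0.066 over all genes. Oas3 differed by -2.56 (0.18), Oas2 and Oasl1 by -2.20 (0.24 and 0.23), Oasl2 by -2.15 (0.40), Oas1a by -1.21 (0.12) and Oas1b by -0.65 (0.26). All but Oas1b were called, 5 of 6 members, against 0.649% of tested genes called lower, and 3 of 6 were called from last-exon sums alone. Oas1g differed by -1.72 (0.14) and was called. All 6 members lay wholly below TLR4-WT, as did 6.64% of tested genes. Without the library that listed Oas2 in part, the median was -1.89. Since the members were chosen on these groups, nothing is read from these counts.

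Markers of another tissue moved with the mock-treated mutant groups. The 10 markers of intestinal epithelium summed to 0.118 to 0.670 FPKM in mock-treated TLR4-WT, with 8 of 10 at 0, between 43.3 and 70.3 FPKM in mock-treated TLR4-K730R, and between 54.8 and 117 FPKM in mock-treated TLR4-K810R, with 9 of 10 above 0 in each mutant group. The 7 markers of mesothelium and fibroblasts summed to 26.7 to 41.7, 50.5 to 58.5 and 99.5 to 228.5 FPKM in the same groups. Macrophage markers summed to 13470 to 14790, 13620 to 14740 and 11630 to 13950 FPKM. After LPS the intestinal sum was 0.0928 to 11.6 FPKM for wild-type TLR4, 51.5 to 58.5 FPKM for TLR4-K730R and 0.127 to 20.8 FPKM for TLR4-K810R. Plasmacytoid dendritic cell markers summed to between 3.86 and 9.01 FPKM in every mock-treated library, mostly Tcf4. A marker without a counted row, as Siglech here, is not shown to be absent, since Itgam had none either. The part of other cells in the lower OAS levels was not tested.

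**Figure D2:**
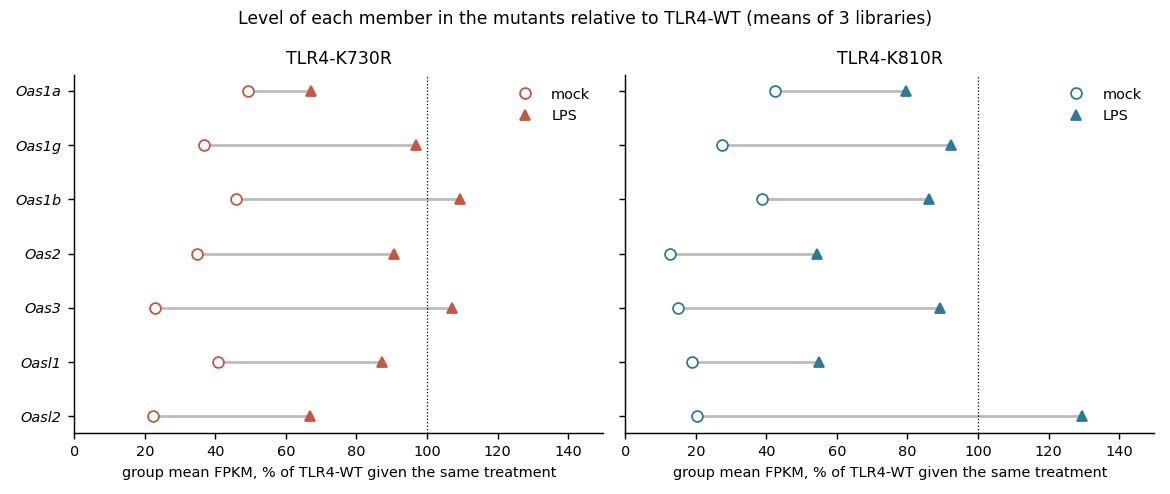
Group mean FPKM of each OAS gene in TLR4-K730R and TLR4-K810R as a percentage of the TLR4-WT mean under the same treatment, with open circles for mock and triangles for LPS (means of 3 libraries). All mock points lie at or below 49.3%, and the LPS points reach 129% for Oasl2 in TLR4-K810R and stay at 54.4% for Oas2 and 54.8% for Oasl1 in that mutant.

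After LPS the members were higher by a median of 1.89 in TLR4-WT cells, 2.88 in TLR4-K730R cells and 3.43 in TLR4-K810R cells, where the medians of all tested genes were -0.28, -0.36 and -0.26. Called higher were 5 of 6 members in TLR4-WT, all but Oasl2, and 6 of 6 in each mutant, where 10.4%, 9.32% and 9.08% of tested genes were called higher. LPS-treated and mock-treated libraries of a genotype did not overlap for any member, as for 15.5%, 13.8% and 14.6% of tested genes on the higher side. Median-of-ratios scaling moved the median of all genes to between -0.043 and -0.017 and the share of calls that were higher from 30.4% to 52.0% in TLR4-WT, from 26.1% to 53.3% in TLR4-K730R and from 31.5% to 51.3% in TLR4-K810R. Under it the member medians were 2.16, 3.26 and 3.68.

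Marker sums moved with LPS as well. The 7 neutrophil markers summed to 33.9 to 63.6 FPKM in the mock-treated libraries and 186 to 253 FPKM in the LPS-treated ones. Of these sums S100a8 held 22.1 to 45.1 FPKM without LPS and 165 to 239 FPKM with it. Camp held at most 0.792 FPKM without LPS and 3.45 to 6.38 FPKM with it. Mmp8 had a lower range with LPS, 4.97 to 14.6 FPKM against 8.49 to 20.6 FPKM without it. Retnlg reached 2.67 FPKM without LPS and 0.531 FPKM with it. In any library S100a9 reached at most 2.23 FPKM, Ly6g 0.644 FPKM and Cxcr2 0.132 FPKM. The 8 macrophage markers summed to 11630 to 14790 FPKM without LPS and 7289 to 10060 FPKM with it. Lyz2 went from 10375 to 13291 FPKM down to 5944 to 8754 FPKM, and Fcgr1 from 26.7 to 51.7 FPKM up to 160 to 412 FPKM. The range of Adgre1 was 148 to 253 FPKM without LPS and 205 to 271 FPKM with it. The 6 B cell markers summed to 6.75 to 24.0 FPKM without LPS, mostly Cd22, and 4.01 to 7.37 FPKM with it. Among the 6 plasmacytoid dendritic cell markers, Tcf4, which other cells also express, held 3.86 to 8.67 FPKM without LPS and 5.89 to 19.2 FPKM with it, and Siglech and Cox6a2 had no counted row. The 7 markers of mesothelium and fibroblasts, mostly Col1a1, Col1a2 and Dcn, summed after LPS to 38.7 to 122 FPKM for wild-type TLR4, 43.0 to 43.7 FPKM for TLR4-K730R and 91.5 to 108.5 FPKM for TLR4-K810R. The part of these cells in the OAS levels after LPS was not tested.

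The size of the rise differed between members. In TLR4-WT, Oasl1 was 16.9-fold higher after LPS by group means, Oas1b 6.10-fold, Oas1g 5.75-fold, Oas1a 5.27-fold, Oas2 4.08-fold, Oas3 2.74-fold and Oasl2 2.08-fold. In TLR4-K730R the folds ran from 6.24 (Oasl2) to 36.2 (Oasl1), and in TLR4-K810R from 9.91 (Oas1a) to 49.0 (Oasl1). Oasl1 thus had the steepest rise of the family in each genotype. Oas3, at 2.74-fold in TLR4-WT, was 12.9-fold higher in TLR4-K730R and 16.4-fold higher in TLR4-K810R.

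The mutant LPS response minus that of TLR4-WT equals the LPS-treated difference minus the mock-treated difference, and it uses the same mock-treated TLR4-WT libraries as the comparison above. For TLR4-K730R it had a median of 1.05 over the members and -0.06 over all genes. It was 2.11 (standard error 0.25) for Oas3, the only member called of 6, where 0.0412% of tested genes were called higher. For TLR4-K810R the median was 1.37 against 0.035, and Oas3 (2.39, standard error 0.25) was again the only one of 6 called, against 0.103%. From last-exon sums alone 0 of 6 were called in either mutant, and without replicate 2 of LPS-treated TLR4-K730R 2 of 6 were called in TLR4-K810R. Oas1g differed by 1.31 in TLR4-K730R and by 1.62 in TLR4-K810R, where it was called in its own fit. All members had a positive difference in both mutants.

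After LPS, the difference from TLR4-WT had a median of -0.18 over the members in TLR4-K730R and -0.24 in TLR4-K810R, where the medians of all tested genes were -0.042 and 0.106. Leaving out 1 library moved the TLR4-K730R median to between -0.409 (without its LPS-treated replicate 3) and -0.066 (without its replicate 2), and each of the 6 libraries compared moved it by over 1.5 times. The TLR4-K810R median ranged from -0.358 to -0.151, the latter without replicate 2 of LPS-treated TLR4-WT. No member was called in either mutant by limma, where 0.00% and 0.134% of tested genes were called, and 1 and 3 of 6 members had an unadjusted p below 0.05, as did 7.69% and 21.8% of tested genes. With library weights 1 member was called in TLR4-K810R, and 1 also without replicate 3 of LPS-treated TLR4-WT. The largest differences were those of Oas2 (-0.83, 95% interval -1.34 to -0.33) and Oasl1 (-0.83, -1.32 to -0.35) in TLR4-K810R, and that of Oasl2 in TLR4-K730R (-0.78, -1.63 to 0.06). Libraries of the mutant lay wholly below TLR4-WT for Oas1a in TLR4-K730R and for Oas2 and Oasl1 in TLR4-K810R, 1 and 2 of 6 members, as did 7.54% and 7.89% of tested genes.

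Of 8 genes around 2-5A outside the family, 3 could be tested. Oas1c, a further member of the Oas1 cluster, rose after LPS in all 3 genotypes, by 1.16, 1.42 and 1.34 (adjusted p = 8.21e-05, 1.04e-05 and 2.26e-05 from limma). Without LPS it held 3.49 ± 0.760 FPKM (SD, n = 3) in TLR4-WT cells, 2.66 ± 0.860 in TLR4-K730R cells and 2.43 ± 0.600 in TLR4-K810R cells, and neither mutant difference was called. Akap7, which carries a 2-5A-degrading domain, fell in all 3 genotypes, by 1.48, 1.34 and 1.28 on the log2 scale, from means of 2.13 to 2.57 FPKM to means of 0.233 to 0.360 FPKM. Abce1, an ATP-binding protein that recycles ribosomes, was called in none of the 3 LPS comparisons. Pde12, the other 2-5A-degrading enzyme, was not listed, nor were Oas1d, Oas1e and Oas1f, and Oas1h had no row within its span.

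The other genes of the interferon and double-stranded RNA pathways were taken from lists that hold none of the 7 members, chosen with earlier results of these data known. After LPS, 26 of the 37 tested rose and 2 fell in TLR4-WT, 26 rose and 3 fell in TLR4-K730R, and 27 rose and 2 fell in TLR4-K810R. Of all tested genes, 10.4%, 9.32% and 9.08% were called higher and 23.9%, 26.5% and 19.7% lower. All 7 sensors Ifih1, Ddx58, Dhx58, Eif2ak2, Adar, Zbp1 and Tlr3 rose in each genotype. Mavs, the adaptor of Ifih1 and Ddx58, was not called (-1.11, -0.24 and -0.34), although its LPS-treated TLR4-WT libraries lay below the mock-treated ones. Prkra, an activator of the kinase Eif2ak2, fell by 1.02 to 1.24 on the log2 scale. Of the interferon regulatory factors, Irf1 and Irf7 rose in each genotype, and Irf2, Irf3 and Irf5 were not called. Stat2 and Irf9, parts of the factor that binds the response element, and Usp18, a brake on the interferon receptor, rose in all 3.

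Without LPS, 8 of the 37 were called lower in TLR4-K730R and 0 higher, where 0.216% of tested genes were called lower: Irf7 (-3.03, adjusted p = 0.000371 from limma), Ifit3 (-2.19), Ifit1 (-1.84), Mx1 (-1.82), Zbp1 (-1.69), Usp18 (-1.60), Bst2 (-1.16) and Dhx58 (-0.96). By sign, 29 of the 37 were lower and 8 higher. The count of calls was 5 without replicate 1 or replicate 3 of mock-treated TLR4-WT, and 5 without replicate 2 of mock-treated TLR4-K730R. In TLR4-K810R 33 were lower and 4 higher by sign, with 0 called higher and 12 called lower against 0.649% of tested genes. The 12 were these 8 and Ddx58 (-1.45), Ifit2 (-2.40), Rsad2 (-1.91) and Cmpk2 (-1.61). Leaving out 1 library at a time gave 8 to 14 calls in TLR4-K810R. Irf7, the factor that amplifies interferon production, had the largest difference of the called ones in TLR4-K730R, and Ifit3 (-2.79, adjusted p = 1.47e-07 from limma), which binds viral RNA with Ifit1, had it in TLR4-K810R. The basal differences of Irf9 (-0.68 and -0.51) were not called. The intestinal, mesothelial and fibroblast sums given above moved with these genes too.

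**Figure D3:**
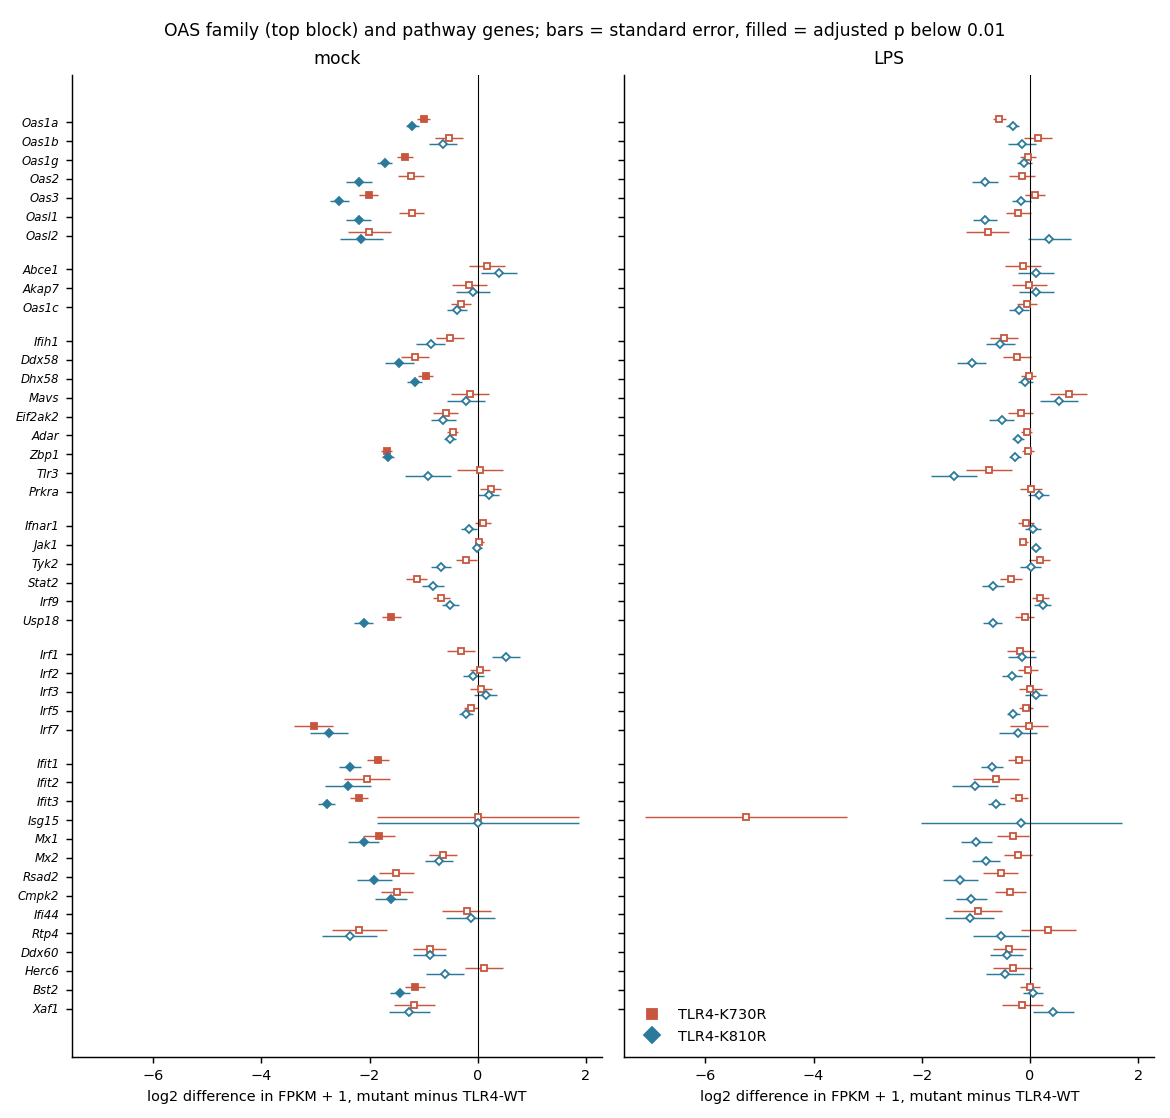
Difference between each mutant and TLR4-WT in log2(FPKM + 1) for the OAS genes (top block) and 37 pathway genes, without LPS on the left and after LPS on the right, with bars for the standard error and filled symbols for an adjusted p below 0.01. Filled symbols stand only in the left panel, where 8 pathway genes of TLR4-K730R and 12 of TLR4-K810R are lower. The wide bars of Isg15 go with libraries of LPS-treated groups in which it is at 0.

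After LPS none of the 37 pathway genes was called between either mutant and TLR4-WT by limma, with 2 of 37 in TLR4-K730R and 16 of 37 in TLR4-K810R at an unadjusted p below 0.05, where the shares over all tested genes were 7.69% and 21.8%. Library weights gave 7 calls in TLR4-K810R, and leaving out replicate 3 of LPS-treated TLR4-WT gave 5. The LPS response was larger in both mutants for Ifit3, by 1.99 (adjusted p = 0.00103 from limma) in TLR4-K730R and 2.17 (0.000231) in TLR4-K810R, and for Zbp1, by 1.65 (0.00015) and 1.39 (0.000375). In TLR4-K810R 4 pathway genes were called without replicate 2 of mock-treated TLR4-WT, and 4 without replicate 3 of LPS-treated TLR4-K730R, which enters through the shared spread.

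The mean of the standardised log2 values of the members correlated over the 18 libraries with Ifit3 at r = 0.996, with Ifit1 at 0.992, with Usp18 at 0.991, with Dhx58 at 0.990 and with H2-M2 at 0.988. These were the 5 most similar of the tested genes outside the family. The single members ran from r = 0.92 (Oasl2) to 0.988 (Oas1a and Oasl1). The libraries fall into mock-treated and LPS-treated sets that these genes share, so the correlations are descriptions with no test. H2-M2, a class I histocompatibility gene outside the pathway lists, held 16.6 ± 0.979 FPKM in mock-treated TLR4-WT cells, 4.68 ± 0.557 in TLR4-K730R cells and 2.12 ± 0.985 in TLR4-K810R cells, and between 87.2 and 96.6 FPKM by group mean after LPS (SD, n = 3).

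Where a gene has several first or last exons, the share that one of them takes was not used to choose the members. The share of the most abundant one was compared between LPS and mock by an exact permutation test (2-sided, libraries permuted within genotype, 8000 arrangements, smallest possible p 0.00025), adjusted over the 5 ends that could be tested.

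Oasl1 changed its first exon with LPS. Its 93-base first exon (114923240 to 114923332) competes with a 346-base one (114923264 to 114923609), which belongs to another protein-coding transcript in GENCODE and reads through the 77-base first intron (114923333 to 114923409) into the second exon. The share of the short, spliced first exon rose by 58.6 percentage points with LPS (adjusted p = 0.000625 from the exact permutation test, with an unadjusted p of 0.00025). The adjusted value was lowered by the small p-value of the Oas3 last exon, a share set aside below. The share of the spliced first exon was 50.7%, 18.1% and 44.6% in mock-treated TLR4-WT, 0.733%, 0.161% and 9.69% for TLR4-K730R, and 0%, 28.0% and 13.8% for TLR4-K810R. LPS-treated libraries held 74.9% to 85.9% for wild-type TLR4, 71.0% to 82.2% for TLR4-K730R and 68.3% to 86.0% for TLR4-K810R. Mock-treated and LPS-treated libraries did not overlap, whatever the genotype.

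Both forms were higher after LPS, by unequal amounts. In TLR4-WT the spliced first exon went from 10.02 ± 4.69 to 367 ± 124 FPKM (SD, n = 3), 36.6-fold, and the unspliced one from 16.4 ± 4.54 to 81.3 ± 4.76 FPKM, 4.95-fold. In the mock-treated mutants the spliced form was at 0 to 1.17 FPKM, and the unspliced one at 8.62 to 11.7 FPKM for TLR4-K730R and 3.02 to 5.22 FPKM for TLR4-K810R. The spliced form thus made up at most 28.0% of first-exon FPKM in a mock-treated mutant library. The genotypes were not compared with a test here, and the FPKM of overlapping forms are estimates of the submitters' software.

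**Figure D4:**
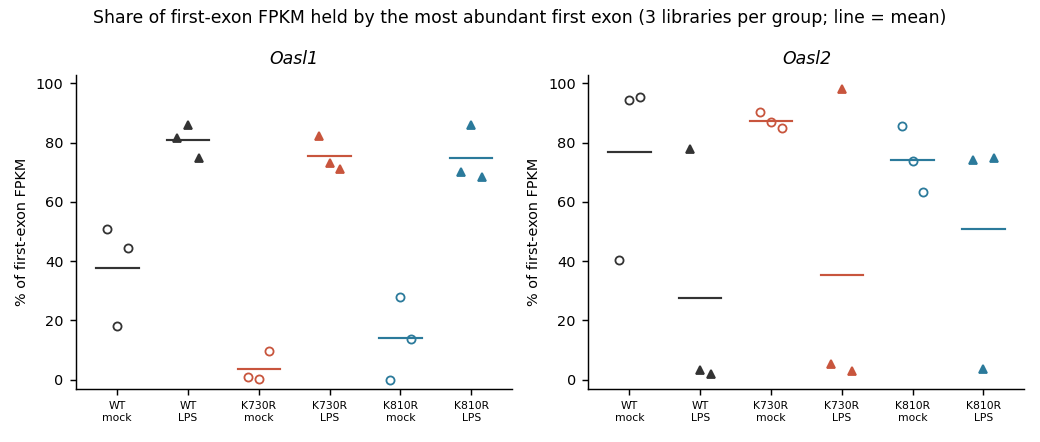
Percentage of first-exon FPKM held by the most abundant first exon of Oasl1 (left) and Oasl2 (right) in each library, with open circles for mock, filled triangles for LPS and a line for the mean of 3 libraries. For Oasl1 all LPS libraries lie at 68.3% or above and all mock libraries at 50.7% or below, while for Oasl2 single libraries switch between below 10% and above 70% within LPS-treated groups.

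The other ends gave less. For the last exon of Oas3 (120753098 to 120754375) the share was higher by 1.83 points with LPS, from means of 99.2%, 98.5% and 96.3% to 99.8% in each genotype. The only other last exon counted, one of a retained-intron transcript (120763917 to 120764419), stayed between 0.0948 and 0.394 FPKM in all libraries, so this share follows the level of the gene, on which the members were chosen, and its p-value is not given. In replicate 3 of mock-treated TLR4-WT a further last exon of 36.6 FPKM was listed downstream of the annotated gene (120752866 to 120753012) and not counted, and there the main one, on which the last-exon sum of Oas3 rests, held 11.97 FPKM. For Oasl1 the share of the last exon listed most (114935921 to 114936067) rose by 55.8 points. In mock-treated TLR4-K810R this exon was at 0, and each other last exon held at most 0.167 FPKM. Such a share also follows the level of the gene, so its p-value is not given. No listed last exon reached the annotated end of the gene (114937915). For the 927-base first exon of Oasl2 (114896936 to 114897862) the share fell by 41.5 points (adjusted p = 0.0288, exact permutation test) without passing the threshold of 0.01. The last exon of Oas2 (120730333 to 120731958) moved by 9.71 points (adjusted p = 0.488, exact permutation test), by 0.55 points without replicate 1 of mock-treated TLR4-K810R, by 6.26 points without replicate 1 of mock-treated TLR4-K730R and by 17.2 points without replicate 3 of mock-treated TLR4-K810R.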

How the data were processed

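RNA of peritoneal macrophages was purified on columns and sequenced on an Illumina machine by a company. Each file that the authors deposited lists the FPKM of transcript events of 20 kinds, in 80071 to 90401 rows, scaled for length and library size. The aligner and the counting program are not given in the sources used here. The labels name build hg18, while the coordinates match mouse GRCm38. An event without expression has no row, and read counts are not given, which leaves the depth unknown.

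An event was kept if it lay on the strand of its gene and overlapped it in GENCODE M21, which removed 5.99% of end-event FPKM. The 9707 genes that reached 1 FPKM in 3 or more libraries were fitted with limma 3.58.1 (R 4.3.3) on log2(FPKM + 1). The fit had an intensity trend and 1 term for each of the 6 groups, and p-values were adjusted by Benjamini-Hochberg. For the RNA-seq, the methods of the study give the threshold of 0.01 and do not name the test. Scripts were tested on simulated data. Event tables were made in Python 3.11.15 with pandas 2.3.3, and plots with matplotlib 3.10.9. Named were all members, the genes of 5 pathway lists except 2 that are not reported here, and the 5 genes most similar to the family. The members, lists and tests were chosen with earlier results of these data known. Valuing Oas1g by coordinates, and leaving out both libraries with a member listed in part, were chosen after seeing the data.

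What libraries with the same replicate number share is not known, and they were not paired in the main fit. The closing section gives the effect of other pseudocounts, scalings, variance models, event filters and end sums, of a replicate block, and of leaving out libraries.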

Additional observations from a re-analysis of the deposited data

Results flagged for a closer look

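Among the members and pathway genes, the LPS response of 4 passed the threshold for a difference between a mutant and TLR4-WT in limma's test of the difference itself. Of all tested genes, 0.0412% were called higher in TLR4-K730R and 0.103% in TLR4-K810R. The members Oas3 and Oas1g were chosen on their basal level and LPS rise in these same groups, so their values are a description and not a test. The difference for Oas3 was 2.11 in TLR4-K730R and 2.39 in TLR4-K810R, and for Oas1g, valued by coordinates, 1.62 in TLR4-K810R. For Ifit3 it was 1.99 and 2.17, and for Zbp1 1.65 and 1.39. These 4 genes were also among those called lower without LPS, in the same TLR4-WT libraries, so the values are not separate evidence. Groups of 3 libraries were not searched for outlying samples.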

How the results depend on the processing

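With a pseudocount of 0.1 the member medians after LPS were 2.194 for wild-type TLR4, 3.51 for TLR4-K730R and 4.043 for TLR4-K810R, those of the response differences were 1.307 and 2.019, and 4 pathway genes differed in response in TLR4-K810R. Median-of-ratios scaling gave 2.163, 3.262 and 3.681 after LPS. It moved the LPS difference of Jak1 in TLR4-K730R, called lower in the main fit, to 0.061 without a call. First-exon sums alone gave 2.167 in TLR4-WT and 3.349 in TLR4-K730R, and left 1 pathway gene with a different response in each mutant. Last-exon sums alone, which miss much of Oasl1 and Oasl2, gave 3.233 after LPS in TLR4-K810R. They gave -1.565 with 3 calls in mock-treated TLR4-K810R, 1 call in mock-treated TLR4-K730R, -0.497 in LPS-treated TLR4-K810R, and response medians of 0.879 and 1.168 with 0 calls in each. Under them the LPS differences of Oasl2 turned to -0.53 in TLR4-K730R and -0.322 in TLR4-K810R. Library weights called 5 members in mock-treated TLR4-K730R and 1 in LPS-treated TLR4-K810R, with 7 pathway genes there. They gave -0.391 in LPS-treated TLR4-K730R, a response median of 0.842 in TLR4-K730R, and 6 pathway genes differing in response in TLR4-K810R. Without the strand and overlap filter, or with Oas1g added by coordinates, 2 members were called for the response of TLR4-K810R. Leaving out both libraries with a member listed in part gave -1.891 in mock-treated TLR4-K810R. The last-exon share of Oasl1 rose by 55.59 points without the event filter and by 4.2 on the logit scale.

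The replicate block called 5 pathway genes in mock-treated TLR4-K730R in place of 8 and moved no other median or count of calls beyond these limits. Deviations of same-numbered libraries had a median correlation of -0.022, against 0.006 for different numbers. Of 18 libraries, 0 were closest to their own number. These values cannot show what the numbers share.

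Leaving out 1 library at a time, the member median ranged from -2.312 to -1.891 in mock-treated TLR4-K810R, from -0.409 to -0.066 in LPS-treated TLR4-K730R, from 0.82 to 1.164 for the response of TLR4-K730R and from 1.18 to 1.48 for that of TLR4-K810R. Members called ranged from 0 to 1 in LPS-treated TLR4-K810R, where replicate 3 of LPS-treated TLR4-WT was the library left out for the 1, and from 1 to 2 for the response of TLR4-K810R, where the 2 came without replicate 2 of LPS-treated TLR4-K730R. Pathway genes called ranged from 5 to 11 in mock-treated TLR4-K730R and from 8 to 14 in mock-treated TLR4-K810R. They ranged from 0 to 5 in LPS-treated TLR4-K810R and from 2 to 4 for the response of TLR4-K810R. The 5 in mock-treated TLR4-K730R came without replicate 1 or 3 of mock-treated TLR4-WT or replicate 2 of mock-treated TLR4-K730R. The last-exon share of Oasl1, whose p-value is not given, ranged from 50.33 to 66.78 points. The other results named here kept their direction and side of the threshold, apart from single pathway genes or members near it (114 of 4722 values lost and 14 gained a call). The causes were not tested. Without counts, the number of reads behind a low value or a 0, as for mock-treated Oas1b, is unknown.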
